A study of Mus musculus with 2 samples.

Results

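Stefins and cystatins are small proteins that block cysteine proteases of the papain type, the cathepsins, by filling the active-site cleft. Type 1 members, the stefins, lack a signal peptide and act inside cells; type 2 members, such as cystatin C and cystatin M/E, are secreted. In the epidermis, stefin A is made by differentiating keratinocytes and is cross-linked into the cornified envelope, and loss of stefin A or of cystatin M/E is known to disturb cornification. Mice carry a cluster of stefin A genes where humans have a single gene, and several of the mouse genes are also expressed in neutrophils.

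The genes described here were chosen by name, as every gene on the array that the scanner files list as Stfa1, Stfa2, Stfa3, Stfa2l1, BC100530, BC117090, Csta, Cstb, Cst3 or Cst6. All 10 names were found, each with 1 probe in 1 spot, out of 30133 genes and 39429 probes. BC100530, BC117090 and Csta are now called Cstdc5, Cstdc6 and Csta1. The first 8 genes of the list are stefins and the last 2, Cst3 (cystatin C) and Cst6 (cystatin M/E), are secreted cystatins.

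The study compared the skin of newborn Pnpla1-/- mice with that of Pnpla1+/+ littermates. PNPLA1 is the enzyme that makes the omega-O-acylceramides of the skin barrier. Both groups were at postnatal day 0 on a C57BL/6N background, and total RNA from the skins of 6 animals was pooled in equal amounts for the 1 array of each genotype. The study describes the germ-line allele of the null mice as Pnpla1 tm1a(KOMP)Wtsi with the reporter and the selection marker removed by flippase. The knockout was global and not limited to keratinocytes. The label of the tissue is skin, while the design text speaks of epidermis, and Col1a2, a collagen gene of dermal fibroblasts, read 275482 on the Pnpla1+/+ array and 201776 on the Pnpla1-/- array.

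Values are the scanner's background-subtracted intensities. Each was divided by the 75th percentile of its array, 2108 for Pnpla1+/+ and 1734 for Pnpla1-/-, and differences are log2 of Pnpla1-/- over Pnpla1+/+ on that scale. With 1 array per genotype there was no replicate, no test and no spread between mice, and a gene was counted as higher or lower when it was past 2-fold. The only error that could be measured was that of printing and scanning. Over 385 probes with at least 8 repeated spots, the technical SD of a difference was 0.09 on the log2 scale. In pooled tissue, fewer cells of a type and less RNA per cell cannot be told apart. As a check of the labels, the Pnpla1 probe (chr17:29026908-29026967, mm9) read 579 on the Pnpla1+/+ array and 114 on the Pnpla1-/- array, a difference of -2.07, or 4.19-fold lower. Whether this probe lies in the disrupted part of the gene was not tested.

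The stefin A genes are close copies, and their probes share sequence. The open-reading-frame parts of 4 probes are shown because they are the places where signals of different genes could mix. Capitals mark the bases that are identical within the best ungapped stretch of each pair. Stfa3 and BC100530, which were both under 2-fold, shared 33 of 39 bases up to and including their stop codons.
Stfa3: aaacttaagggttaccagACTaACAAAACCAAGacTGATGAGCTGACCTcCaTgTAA
BC100530: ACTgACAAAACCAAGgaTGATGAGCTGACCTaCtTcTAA
Stfa2l1 and Gm5416, another gene of the cluster, which were both past 2-fold higher, shared 29 of 34 bases.
Stfa2l1: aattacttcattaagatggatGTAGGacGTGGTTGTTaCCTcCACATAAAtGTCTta
Gm5416: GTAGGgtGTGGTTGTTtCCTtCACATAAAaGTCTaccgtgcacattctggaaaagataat
Of 91 pairs among the probes of the cluster, 11 had an ungapped stretch of at least 25 bases, and the longest exact run was 26 bases, between Stfa2l1 and a probe for a predicted gene next to it. Genes on different sides of 2-fold shared stretches too: Gm5483 (3.44) and Stfa3 (0.37) shared 30 of 33 bases with an exact run of 22, Stfa1 (0.40) and Stfa2 (2.66) shared 30 of 37, Gm4758 (a bound of 3.19) and Stfa3 shared 30 of 37, and 2010005H15Rik (1.52) and BC100530 (0.42) shared 27 of 28, where the number beside each gene is its log2 difference. A difference of a gene whose probe shares such a stretch may therefore hold signal from its copies. Probes were compared only with probes, so the same may be true of the other genes of the cluster. How much cross-hybridisation there was, was not tested.

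Of the 10 genes, 5 were at least 2-fold higher in Pnpla1-/- skin and 0 were lower; the background was 6.70% of the 22374 genes with a difference for higher and 3.04% for lower. The 5 were Stfa2l1, Stfa2, BC117090, Csta and Cstb, all of them stefins. The other 5, Cst6, BC100530, Stfa1, Stfa3 and Cst3, lay between 0.24 and 0.98 on the log2 scale, above 0 but under 2-fold. The median of the 10 was 1.15, against 0.00 over all genes with a difference. The 8 stefins had a median of 1.68 and the 2 secreted cystatins one of 0.61.

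Stfa2l1, a stefin A gene listed as stefin A2 like 1, gave the largest difference of the 10. Its probe read 14738 on the Pnpla1+/+ array and 80933 on the Pnpla1-/- array, which was 6.99 and 46.7 times the 75th percentile. The difference was 2.74, or 6.68-fold higher. Its probe (chr16:36160118-36161876, mm9, plus strand) spans more than its 60 bases in the genome and so crosses an intron. Stfa2, stefin A2, was alike in size. It read 28724 in Pnpla1+/+ and 149753 in Pnpla1-/- skin, or 13.6 and 86.4 times the 75th percentile, a difference of 2.66 or 6.34-fold higher (chr16:36404032-36404089, minus strand). The differences of Stfa2l1 and Stfa2 lay within the technical SD of each other. The best stretch shared by their probes was 9 of 12 bases, and whether either probe also read the other gene was not tested.

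Csta and BC117090 formed a second pair. The Csta probe (chr16:36120084-36120143) read 471 in Pnpla1+/+ and 1584 in Pnpla1-/- skin, a difference of 2.03 or 4.09-fold higher. The BC117090 probe (chr16:36334350-36334409) read 455 and 1564, a difference of 2.06 or 4.18-fold higher. Both were below the 75th percentile of either array, at 0.22 times it in Pnpla1+/+ skin and 0.90 to 0.91 times it in Pnpla1-/- skin, and both differences were far above the technical SD. Csta1 is the mouse gene that carries the name of human stefin A.

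Cstb encodes stefin B, an inhibitor found in most tissues and encoded on another chromosome. Its probe (chr10:77890058-77890117) read 15923.5 in Pnpla1+/+ and 32788 in Pnpla1-/- skin, a difference of 1.32 or 2.50-fold higher. It was the only one of the 5 that fell under 2-fold in any processing alternative, at 0.90 when the arrays were centred on the E1A spike-in probes.

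Stfa1, Stfa3 and BC100530 behaved otherwise than their neighbours. Stfa1 (chr16:36285398-36285457) read 154595 in Pnpla1+/+ and 168304 in Pnpla1-/- skin, a difference of 0.40. Stfa3 (chr16:36450693-36450752) read 230174 and 245299, a difference of 0.37, and BC100530 (chr16:36359525-36359584) read 202571 and 223381, a difference of 0.42. The 3 differences lay within the technical SD of each other, and each intensity was already near the top of the array's range in wild-type skin. The brightest spot on the Pnpla1-/- array was 316530, and no spot was called saturated. Had Stfa3 or BC100530 reached that brightest spot, the difference would have been 0.74 or 0.93, so a 2-fold difference would have lain beyond every spot measured; for Stfa1 it would have been 1.32. Among the 430 genes of at least 100000 on the Pnpla1+/+ array, the median difference was 0.14, 1 was at least 2-fold higher and 5 were lower. Stfa1, Stfa3 and BC100530 were at or above 97.0%, 95.3% and 97.9% of those genes. The 430 genes were chosen by the Pnpla1+/+ array alone, which can tilt them toward lower differences, so these shares are a description only. Whether signal compression held down their differences was not tested.

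**Figure D1:**
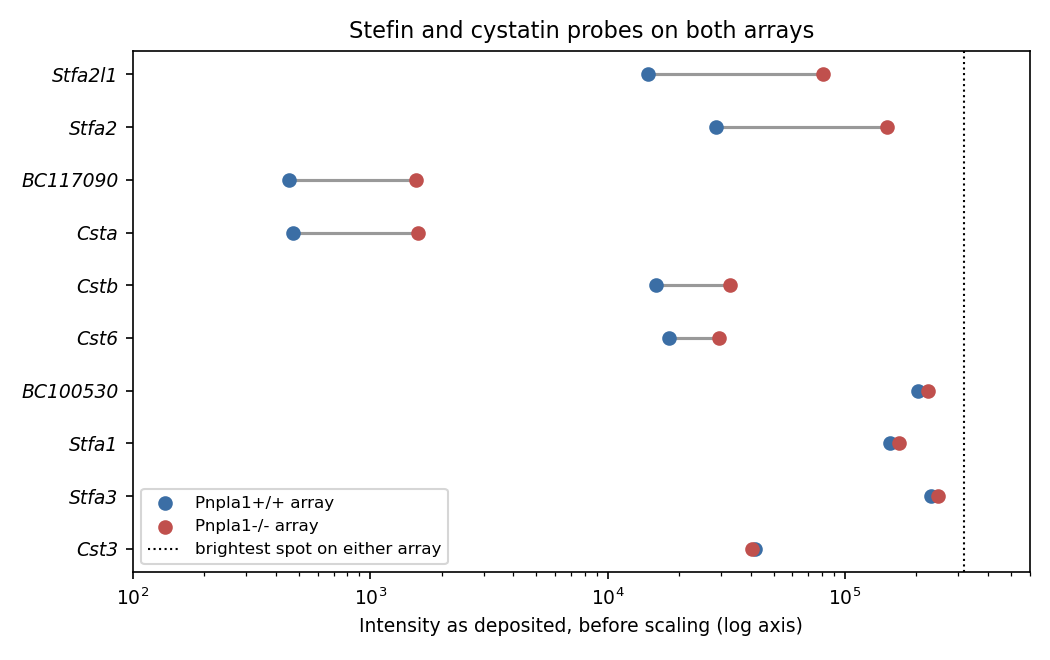
Intensity of each stefin and cystatin probe as deposited (log axis, before scaling) on the Pnpla1+/+ array (blue) and the Pnpla1-/- array (red), 1 array each, ordered by difference; the dotted line is the brightest spot on either array. Stfa2l1 and Stfa2 moved far to the right, Csta and BC117090 did so at low intensity, and Stfa1, Stfa3 and BC100530 lay close to the dotted line on both arrays.

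Neither secreted cystatin passed 2-fold, although Cst6 differed more than Stfa1, Stfa3 and BC100530. Cst6, cystatin M/E, which inhibits legumain and cathepsin L-like proteases in the upper epidermis, read 18182 in Pnpla1+/+ and 29576 in Pnpla1-/- skin (chr19:5347982-5348041). Its difference of 0.98, or 1.98-fold, was just under the 2-fold limit and was less than the technical SD away from it, so its place outside the count of 5 rests on the threshold. Cst3, cystatin C, the widely expressed extracellular inhibitor, read 41782.5 and 40492 (chr2:148697681-148697740), a difference of 0.24 or 1.18-fold. The intensity of Cst3 was thus lower on the Pnpla1-/- array and became higher only through the scaling.

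**Figure D2:**
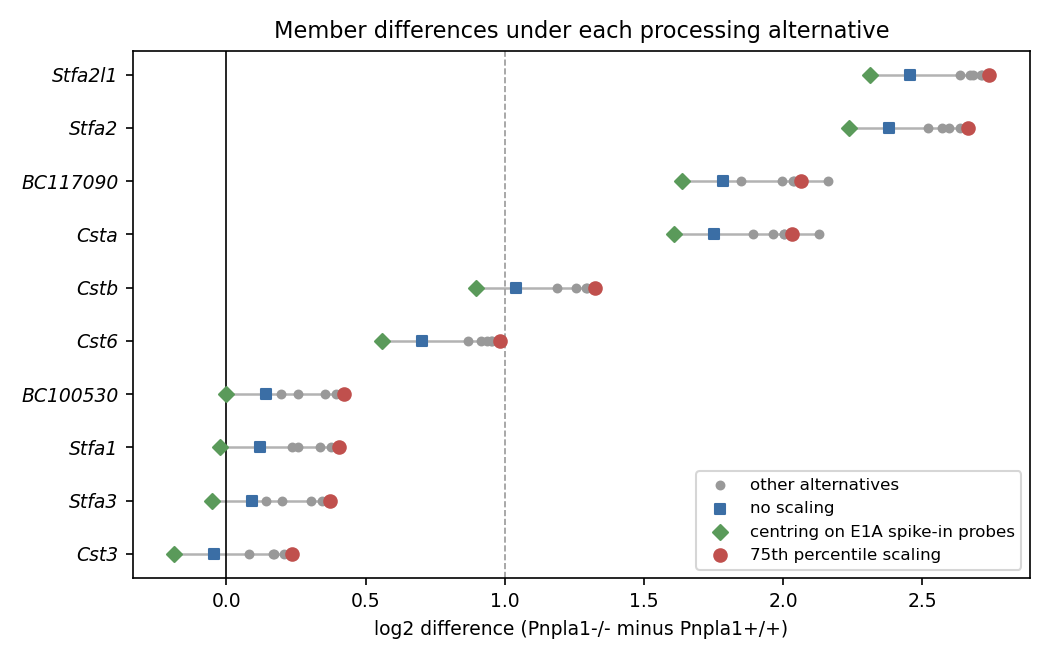
Log2 difference (Pnpla1-/- minus Pnpla1+/+) of each gene under the scaling used here (red), no scaling (blue squares), centring on the E1A spike-in probes (green diamonds) and the other alternatives (grey); the dashed line is 2-fold. Stfa2l1, Stfa2, BC117090 and Csta stayed past 2-fold throughout, while Stfa1, Stfa3, BC100530 and Cst3 crossed 0 with spike-in centring, and Cst3 also with no scaling.

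The scaling mattered for the small differences. The 8 E1A spike-in probes, which read control transcripts added to each labelling reaction, were themselves 0.43 higher on the scaled Pnpla1-/- array (range 0.30 to 0.49). Relative to them Stfa1 was at -0.02, BC100530 at 0.00, Stfa3 at -0.05 and Cst3 at -0.19, while the median of all genes was at -0.43. Of all genes past 2-fold, 68.8% were higher in Pnpla1-/- skin with the scaling used here, 41.2% with no scaling and 27.9% with spike-in centring. The direction of these 4 genes was therefore not settled, whereas Stfa2l1 was still at 2.31, Stfa2 at 2.24, BC117090 at 1.64 and Csta at 1.61. Cst6 ranged from 0.56 to 0.98 and reached 2-fold in 0 of 12 alternatives.

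Of the 8 stefins, 7 lie in the cluster on chromosome 16, whose probes spanned 330.7 kb (chr16:36120084-36450752, mm9). Within that span the array had 14 probes, and 10 of them were at least 2-fold higher in Pnpla1-/- skin, with 0 lower and a median of 2.36. Over all genes with a difference, 6.70% were higher and 3.04% lower. Some of the 14 probes shared sequence, as given above, and so may not be separate readings. The 7 probes that were not in the list included 6 that were at least 2-fold higher. Gm5416 (now Csta3), another stefin A gene, read 9315 and 90743, a difference of 3.57 or 11.8-fold, and so exceeded every gene of the list. Gm5483 (now Cstdc4) read 2349 and 20932, a difference of 3.44. A probe described as a stefin 3-like transcript, TC1722392, read 217 and 1961, a difference of 3.46. ENSMUST00000077110, listed as a predicted gene, read 6092 and 37318, a difference of 2.90, on a probe that shared 46 of 49 bases with that of Stfa2l1. Gm4758 was not well above background in Pnpla1+/+ skin and was at least 9.15-fold higher in Pnpla1-/- skin.

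One stefin A gene of the cluster was measured in repeated spots. The probe of 2010005H15Rik (now Csta2) had 9 usable spots on both arrays. Their mean intensity was 23704 on the wild-type array and 56008 on the null array. The difference was 1.52 ± 0.03 (SD over 9 spots of the same pools), with a range of 1.47 to 1.57. This is an error of the array and not of the mice. Its probe shared 27 of 28 bases with that of BC100530, which differed by 0.42 only. The remaining probe of the span, NAP093863-001, read 583 and 450, a difference of -0.09.

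**Figure D3:**
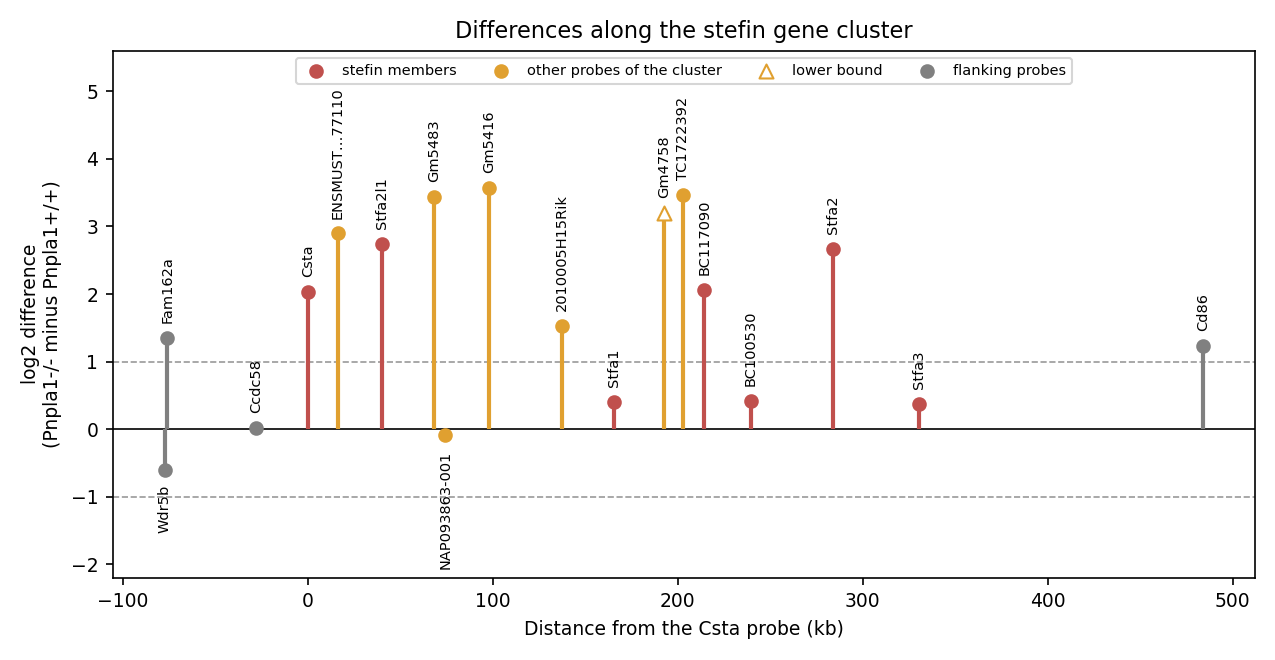
Log2 difference (Pnpla1-/- minus Pnpla1+/+) of every probe with a difference in and beside the stefin cluster, against distance from the Csta probe in kb; red marks the stefins of the list, orange the other probes of the cluster, grey the flanking probes, and the open triangle a lower bound. 10 probes of the cluster stood past the dashed 2-fold line, and Stfa1, BC100530, Stfa3 and NAP093863-001 stood below it.

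The higher probes were not in one block. Stfa1 lay between 2010005H15Rik and Gm4758, and BC100530 between BC117090 and Stfa2, so that stefin genes under 2-fold were flanked by stefin genes past it. Outside the cluster, on the side of Csta, Ccdc58 differed by 0.02, Fam162a by 1.35 and Wdr5b by -0.61. On the side of Stfa3, Casr and TC1713419 were not well above background on either array. Cd86, a co-stimulatory molecule of antigen-presenting cells, was the next measured gene, with 571 in Pnpla1+/+ and 1101 in Pnpla1-/- skin and a difference of 1.23. Genes beside the cluster thus differed in both directions.

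The promoters are shown because genes past 2-fold and genes under it had similar sequence before their start. Each line is the 80 bases before the annotated start, from RefSeq on GRCm38.p6, and the capitals mark the block ACCTTTAAAACC. Stfa2 is at chr16:36408364-36408443 (minus strand), Stfa2l1 at chr16:36156731-36156810 (plus), Stfa1 at chr16:36277068-36277147 (plus), Stfa3 at chr16:36455393-36455472 (minus) and Cstdc5, the BC100530 gene, at chr16:36367571-36367650 (minus).
Stfa2: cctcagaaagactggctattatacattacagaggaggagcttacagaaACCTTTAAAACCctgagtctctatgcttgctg
Stfa2l1: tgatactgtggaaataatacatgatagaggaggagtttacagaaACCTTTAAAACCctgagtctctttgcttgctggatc
Stfa1: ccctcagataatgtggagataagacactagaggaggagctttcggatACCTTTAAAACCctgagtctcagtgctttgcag
Stfa3: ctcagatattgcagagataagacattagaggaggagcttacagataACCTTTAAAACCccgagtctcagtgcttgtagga
Cstdc5: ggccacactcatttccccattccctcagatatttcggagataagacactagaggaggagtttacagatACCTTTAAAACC

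The block was found after the values were seen, as the 12 letters shared by most windows of the cluster. It was in the windows (250 bases before to 50 after the start) of 8 of the 10 cluster genes in the promoter table, all but Csta1 and Csta2, and in 11 of 32851 promoter windows of the genome on either strand, or 0.033%, those 8 included. It ended 20 to 24 bases before the start in Stfa2, Stfa2l1, Stfa1 and Stfa3 and directly at the annotated start in Cstdc5. The letters TTTAAA, which overlap the block and resemble a TATA box, were in 9 of the 10 genes and in 13.2% of all promoter windows. The block was present in Stfa1, Stfa3 and Cstdc5, which were under 2-fold, and in Stfa2, Stfa2l1, Cstdc4 and Csta3, which were past it, and Csta1 and Csta2, which lacked it, were past it too.

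Over the bases that aligned without a gap within the 250 bases before the start, identity between 8 of the cluster genes ranged from 72.8% to 96.1% over 28 pairs, with a median of 83.2%. The aligned bases ran from 116 (Csta1 with Csta3) to 247 (Stfa1 with Stfa2, among others), so the percentages cover unlike lengths. The 3 pairs with both genes under 2-fold (Stfa1, Stfa3, Cstdc5) had 85.0% to 96.1%, the highest being Stfa1 with Cstdc5. The 10 pairs with both genes past 2-fold had 72.8% to 92.3%, the highest being Stfa2 with Stfa2l1, and the 15 mixed pairs 73.6% to 91.2%. The ranges overlapped. Motifs were searched on both strands of the 11 windows of the 10 genes. The AP-1 letters TGANTCA were in 2 genes (Cstdc3, Stfa3) and in 7.8% of all promoter windows. The C/EBP letters TTGCNNAA were in 4 genes (Csta3, Cstdc3, Cstdc5, Stfa1) and in 10.8% of all windows. The STAT letters TTCNNNGAA were in 1 gene (Cstdc4) and in 8.3% of all windows. These matches are a description of the letters in these windows.

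Beyond the 10 genes, 17 other genes of the cystatin family or the stefin cluster were on the array, of which 11 had a difference or bound, 5 were at least 2-fold higher and 0 lower. Their median was 0.62 with bounds included and 1.52 over the 7 measured on both arrays, and it was 0.30 with quantile normalization. Cstad (-0.60) and BC051142 (0.06), first listed with them, are not cystatins and were taken out after their values were seen. Of the 5, 4 were the cluster genes Gm5416, Gm5483, Gm4758 and 2010005H15Rik. The fifth was Fetub, fetuin-B, a secreted cystatin-family protein of liver that inhibits astacin metalloproteases, with readings of 143 and 11882 for the wild-type and null pools, a difference of 6.66 or 101-fold. Cst7, cystatin F of immune cells, read 742 and 489, a difference of -0.32. The other type 2 cystatins of the list that were measured or bounded, Cst8 and Cst10, differed by -0.08 (a bound) and -0.10, and 6 family members were not well above background on either array.

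Among the 14 papain-like cathepsins and other lysosomal proteases listed as targets or partners, all were measured, 4 were at least 2-fold higher and 1 lower, with a median of 0.52. These figures depended on the scaling: 2 were higher and 1 lower with no scaling (median 0.24), and 1 was higher and 2 lower with spike-in centring (median 0.09). Ctss, cathepsin S of antigen-presenting cells, read 4153 in Pnpla1+/+ and 14546 in Pnpla1-/- skin, a difference of 2.09. Ctsc, which activates granule serine proteases, differed by 1.33, Ctsw by 1.06 and Ctsd, an aspartic protease that stefins do not inhibit, by 1.01 on one probe and 0.99 on the other. Ctse, also an aspartic protease, was lower, at -1.07. The other 9 stayed under 2-fold. Among the cysteine proteases of these, Ctsl read 38456 and 34970 (0.14), Lgmn, legumain, 14058 and 17963 (0.64), Ctsb 38040 and 47220 (0.59), Ctsh 22430 and 31778 (0.78) and Ctsk 11190 and 5625 (-0.71).

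Of the 5 genes for calpains and caspase-14, the other proteases of cornification on the list, 0 passed 2-fold and the median was 0.64; Capn12 was at 0.79 on the probe used, and its dimmer probe gave a bound of 1.39. Of 7 genes of envelope cross-linking, 3 were at least 2-fold higher (2 with no scaling or spike-in centring) and 0 lower, with a median of 0.30. Tgm1, transglutaminase 1, which cross-links envelope proteins, read 2942 in Pnpla1+/+ and 8764 in Pnpla1-/- skin, a difference of 1.86, and Tgm5 differed by 1.27. Tgm3 differed by 2.12 on one probe and by 0.03 on the other, so the probes disagreed. Lor, loricrin, the main envelope protein, read 243070 and 162800, a difference of -0.30.

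Because stefin A genes are expressed both in keratinocytes and in neutrophils, markers of other cells are given beside them. Of 14 neutrophil genes, 10 were at least 2-fold higher in Pnpla1-/- skin and 0 lower, with a median of 2.92. Over the 12 measured on both arrays, 8 were at least 2-fold higher and the median was 2.89. With normexp background correction the count was 10 and the median 2.12. The 3 highest were Cxcr2, at least 59.8-fold, Lcn2, which keratinocytes also make, at 4.71 and Mmp8 at 4.63. The 3 lowest were Csf3r at 0.04, Elane at 0.05 and Camp at 0.18. The summed intensity of the 14 genes was 95770 in Pnpla1+/+ and 99970 in Pnpla1-/- skin. Sums of this and the later lists are before scaling unless stated. The brightest, Csf3r, read 89901 and 76226. It made up most of the sum on both arrays, so the sum says little about the other neutrophil genes. Lcn2 read 528 and 11382. The defining surface marker Ly6g read 524 and 576, a difference of 0.42, and Mpo read 32.2 and 541.

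Part of the leukocyte and macrophage genes were higher as well. Of 5 leukocyte genes 3 were at least 2-fold higher (Cd52 2.06, Ptprc 1.51, Laptm5 1.19), with a median of 1.19 and a summed intensity of 5110 and 13250, Cd52 being the brightest at 2792 and 9576. Of 8 monocyte and macrophage genes 4 were (Lyz2 2.35, Emr1 1.24, Cd163 1.13, Cd14 1.02; Itgam was counted from a probe at -0.03, while its other probes were at 1.14 and 2.84), with a median of 0.95 and a summed intensity of 38680 and 48990, Csf1r being the brightest at 14484 and 18988. Of 6 mast cell genes 1 was, Fcer1a at 1.41, and the median was -0.47, the sum going from 119500 to 69200 and the brightest, Cpa3, from 56546 to 32445. The neutrophil, leukocyte and macrophage medians were above 0, and so were those of the protease, envelope cross-linking and epidermal keratinocyte lists. The mast cell, hair follicle and fibroblast medians were below 0. With no scaling and with spike-in centring alike, 10 neutrophil, 2 leukocyte and 1 monocyte and macrophage genes were at least 2-fold higher; mast cell genes were 1 higher and 1 lower with no scaling, and 0 and 1 with spike-in centring. The part of these cells in the stefin differences was not tested.

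Epidermal keratinocyte genes had a median slightly above 0 and hair follicle genes one below it. Of 6 epidermal keratinocyte genes 2 were at least 2-fold higher (1 with spike-in centring), Dsg3 at 1.82 and Krt14, a basal keratin, at 1.35. Their median was 0.21. The summed intensity was 829200 in Pnpla1+/+ and 831700 in Pnpla1-/- skin before scaling, and 393.3 and 479.6 after it. The brightest, Krt10, read 277989 and 262540. The median of this list changed sign to -0.07 with no scaling and -0.22 with spike-in centring, as did that of envelope cross-linking (-0.12) with spike-in centring. Of 8 hair follicle genes 0 were higher and 3 lower (Krt35 -1.33, Krt28 -1.23, Krt27 -1.10; Krt85 was counted from a probe at -0.18, while its other probes were at -0.45 and -1.34), with a median of -0.88, a sum of 222200 and 101600, and Krt71 as the brightest at 84119 and 39193; 6 were lower with no scaling (median -1.16) and with spike-in centring (median -1.30). Of 6 fibroblast genes 0 passed 2-fold and the median was -0.07. Their sum was 718400 and 559800 before scaling, and 340.7 and 322.8 after it. Over all 7 marker lists, Cxcr2 and Mmp9 were the markers not well above background on one array, that of Pnpla1+/+, and every other marker was measured on both.

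**Figure D4:**
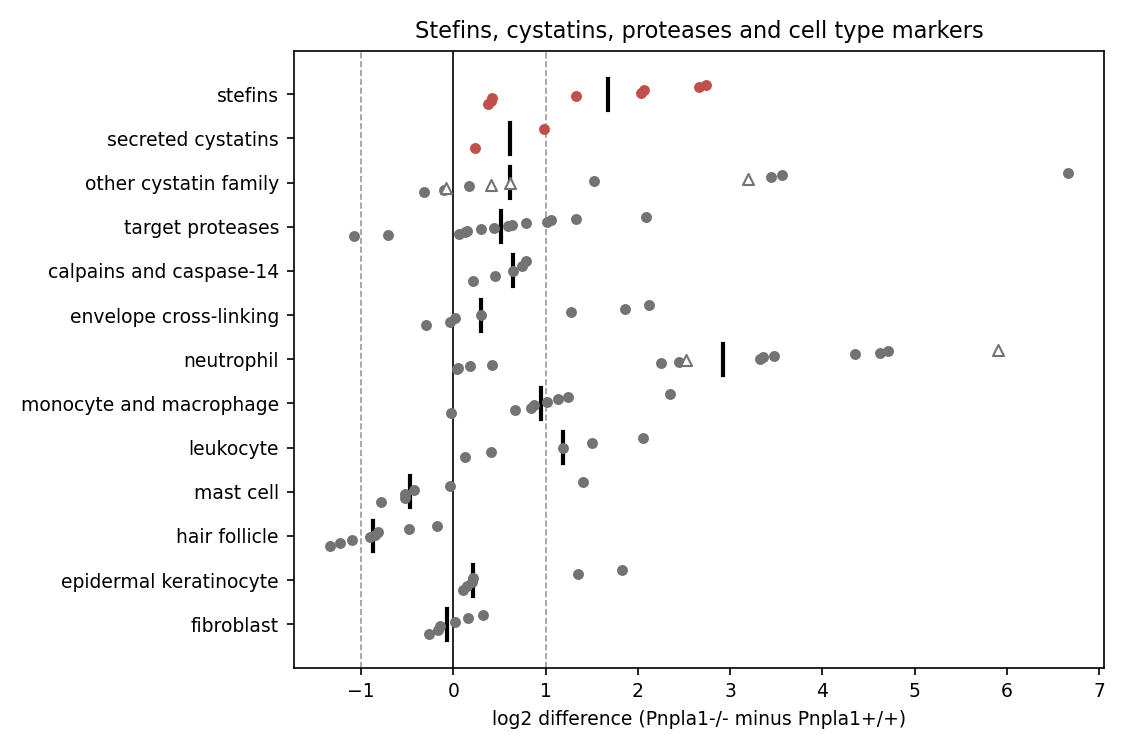
Log2 difference (Pnpla1-/- minus Pnpla1+/+) of each gene of the stefins and secreted cystatins (red) and of the other lists (grey); open triangles are bounds, short bars the median of each list, and dashed lines 2-fold. The stefins split into a group near 0.4 and a group from 1.32 to 2.74, the neutrophil list had the highest median (2.92) and the hair follicle list the lowest (-0.88).

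The genes outside the list whose difference was nearest to that of Stfa2l1 (2.74 over the 2 arrays) were Fgr (2.74), Olfr1395 (2.74), Prss22 (2.73), Tnf (2.75) and Il6 (2.76). Fgr is a tyrosine kinase of myeloid cells and Tnf and Il6 are cytokines of inflammation. All 5 were dim, with 29.0 to 85.4 on the Pnpla1+/+ array and 160 to 466 on the Pnpla1-/- array, where Stfa2l1 was well inside the measured range. With 1 array per genotype, likeness here means only a similar difference.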

How the data were processed

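Skin RNA of Pnpla1+/+ and Pnpla1-/- newborns was hybridised by the study to Agilent Mouse Gene Expression 4x44K v2 arrays with Cy3 as the only dye, and both arrays were on the same slide. Per the labels, the scanner files were made with Agilent Feature Extraction 11.5.1.1. The deposited intensity of each spot is its processed signal after background subtraction. The authors then applied a global normalization in GeneSpring GX, and the deposited value table holds each probe's ratio to a constant of its array, 2109.2 for Pnpla1+/+ and 1734.1 for Pnpla1-/-; it served as an alternative.

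The scanner intensities were taken as log2 minus log2 of the 75th percentile of the array. Control spots and outlier-flagged spots (138 and 82) were left out and repeated spots of a probe were averaged. A gene took its probe of highest mean log2 value. A probe not well above background on one array gave a bound, and one below on both gave no value; 71.7% and 73.3% of spots were well above background. The RefSeq table (GRCm38.p6) named 27508 of the 39429 probes through their accession, 3544 through a current symbol and 404 through a former one, and 7973 kept the name in the files. Probe coordinates are mm9 as the files give them. The number of arrays, 1 per genotype, limits the precision.

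The members and all lists were chosen with earlier results of these data known. Named were every member, Pnpla1, all list genes past 2-fold (in lists with over 6 of them, the 3 highest and 3 lowest), the brightest markers, the probes in and beside the cluster, and the 5 genes nearest to the largest member difference. Others are given as examples and were chosen after their values were seen, as were the promoter motifs. The settings tried were other scalings, normexp background correction (offset 50), quantile and cyclic loess normalisation, other probe rules and filters, and thresholds of 1.5-fold and 3-fold. The script was tested on simulated data. Python 3.11.15, R 4.3.3 and limma 3.58.1 were used.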

Additional observations from a re-analysis of the deposited data

How the results depend on the processing

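The count of stefins and cystatins at least 2-fold higher in Pnpla1-/- skin was 4 with spike-in centring (without Cstb), 6 at 1.5-fold (with Cst6), 4 at 3-fold and 5 in the other alternatives of 14, and the count lower was 0 in each. Their median difference was 0.87 with no scaling, 1.03 with quantile normalization and 0.73 with centring on the E1A spike-in probes. Of all genes with a difference, 6.70% (1499) were higher and 3.04% (681) lower with the scaling used here; the shares were 4.47% (998) and 6.37% (1424) with no scaling, 3.74% (829) and 9.68% (2147) with spike-in centring, 4.34% (960) and 1.45% (321) with normexp, 10.1% (3041) and 3.67% with no filter on dim probes, 13.8% (3092) and 9.35% (2092) at 1.5-fold, and 3.06% (684) and 1.02% (228) at 3-fold. Higher genes made up 68.8% of those past 2-fold, against 74.9% with normexp and 73.3% with no filter on dim probes. The share was 62.7% with median scaling and 58.8% with quantile normalization. It was 41.2% with no scaling and 27.9% with spike-in centring, which moved the median of all genes by -0.28 (no scaling) and -0.43 (spike-ins). The causes were not tested. Of the other values, those of single genes and list medians, 194 moved by less than the technical SD of a difference and 82 by more, and none that was past 2-fold changed sign. A slide block was not run because it needs more than 1 array per genotype. No paired analysis was possible because each genotype had 1 array of pooled RNA. Signal over background limits Gm4758, Cxcr2 and Mmp9 to bounds, and a 2-fold difference of Stfa3 or BC100530 would lie beyond the brightest spot measured.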
